A study of Caenorhabditis elegans with 27 samples.

Results

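The genes described here are the yolk protein genes vit-1, vit-2, vit-3, vit-4, vit-5 and vit-6 and the yolk receptor gene rme-2 of Caenorhabditis elegans. They were chosen by name, and all 7 were found among the 45461 features of the count table. All 7 were also among the 7418 expressed genes that were tested, so no member was lost to the filter on low counts.

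Vitellogenins are large lipid-carrying proteins that the intestine of the adult hermaphrodite makes and secretes into the body cavity. Growing oocytes take them up by endocytosis through RME-2, a receptor of the low-density lipoprotein receptor family in the oocyte membrane. The products of vit-1 and vit-2 form the yolk protein YP170B, those of vit-3, vit-4 and vit-5 form YP170A, and that of vit-6 is cleaved to YP115 and YP88. The mRNA of rme-2 is made in the germ line, where the RNA-binding protein GLD-1 keeps it from being translated until oocytes grow. The set thus joins a product of the soma with the germ cell protein that receives it.

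The study asked how GLD-2 and GLD-4, which add poly(A) tails in the cytoplasm, act on the abundance and translation of mRNAs. Wild-type N2 young adults were fed bacteria that express double-stranded RNA against gld-2, against gld-4, or an empty vector as control RNAi. Whole-worm extracts were sequenced as input and as the pooled polysomal (P) and non-polysomal (NP) fractions of sucrose gradients. The groups were gld-2(RNAi), gld-4(RNAi) and control RNAi in each of P, NP and input, 9 groups of 3 libraries and 27 libraries in all, from poly(A)-enriched RNA. RNAi by feeding lowers a gene product without removing it, and the study describes gld-2(RNAi) adults as sterile and gld-4(RNAi) adults as fertile. In whole animals, fewer cells of a type cannot be told apart from less RNA per cell. The labels do not say whether replicates came from separate cultures, so p-values measure the spread between these libraries.

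The libraries held 12160686 to 18132556 counts (median 15121697). Levels are given as CPM, counts scaled to a common library size, after TMM scaling over all 27 libraries, and p-values are from edgeR's quasi-likelihood test, adjusted by Benjamini-Hochberg over the 7418 tested genes, with 0.05 as the threshold. The knockdowns were visible: in input, gld-2 stood at 4.40, 9.99 and 5.72 CPM in gld-2(RNAi), against 53.5, 82.0 and 101 CPM in control RNAi, and gld-4 stood at 8.89, 18.3 and 17.1 CPM in gld-4(RNAi), against 112, 178 and 186 CPM in control RNAi. The gld-4 mRNA was also lower in gld-2(RNAi), with means at 67.7% of control in input, 40.9% in NP and 49.7% in P. Its groups overlapped in input but not in NP and P (33.9% and 29.8% of tested genes in this direction). The gld-2 mRNA in gld-4(RNAi) stood at 84.3% of control in input, 88.1% in NP and 103.4% in P, with overlap in each. The part of the lower gld-4 mRNA in other values was not tested. Markers of both source tissues were present. The 12 intestine markers summed to 1670 to 3603 CPM in gld-2(RNAi) input, 2002 to 4178 in gld-4(RNAi) input and 2023 to 3496 in control input, with fat-7 listed at 0 throughout and elt-2 and act-5 detected in every library. The 15 oocyte and eggshell markers summed to 4260 to 6760 CPM in gld-2(RNAi) input, 18930 to 27010 in gld-4(RNAi) input and 12930 to 17650 in control input.

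Replicate 1 stood apart for the yolk protein genes. In all 9 groups it was the highest of the 3 libraries for each of the 6 vit genes, at 1.04 to 2.69 times the mean of replicates 2 and 3. The intestine markers moved the same way, with summed levels of 1882 to 5974 CPM in the 9 replicate 1 libraries and 781 to 2298 CPM in the other libraries. Replicate 1 was also the highest library of all 9 groups in the summed sperm, body wall muscle and hypodermis markers, and the lowest of all 9 in the embryo markers. For the oocyte and eggshell markers it was the lowest in 6 groups and the highest in 2, for the gonadal sheath and spermatheca markers the highest in 6 and the lowest in 1, and for the endocytosis genes, the vit gene regulators and the neuron markers the lowest in 8. The part of these differences in the vit values was not tested. The receptor was ordered differently: rme-2 was lowest in replicate 1 in 5 groups and highest in 2. Libraries with the same replicate number deviated together in every comparison. So did libraries numbered 2 with those numbered 3, and the pairing of 2 and 3 is uncertain. Fits with the number as a block, and fits without the replicate 1 libraries, are given where they change a call.

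All members were abundant mRNAs. Per kilobase of exon, vit-2 led in control input with 951, 780 and 823 CPM per kb in replicates 1 to 3. The mean levels in control input, in CPM per kb ± SD (n = 3), were 852 ± 89.0 for vit-2, 781 ± 111 for vit-6, 660 ± 49.5 for vit-5, 528 ± 28.3 for vit-4, 489 ± 16.8 for vit-3, 389 ± 35.4 for rme-2 and 229 ± 67.2 for vit-1. In that order the ranges of vit-2 and vit-6, of vit-6 and vit-5, and of vit-4 and vit-3 overlapped, while vit-5 lay above vit-4, vit-3 above rme-2 and rme-2 above vit-1 in all 3 libraries. Among 7363 tested genes with an exon length, vit-2 ranked 171, vit-6 192, vit-5 219, vit-4 269, vit-3 285, rme-2 333 and vit-1 587 in control input. The vit genes together took 1.55 to 1.92% of all counts in control input, and rme-2 took 0.0982 to 0.114%.

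Within the yolk message vit-1 held the smallest share in every library. Of the counts of the 6 vit genes, vit-2 held 21.1 to 30.1%, vit-6 19.6 to 24%, vit-5 16.5 to 20.8%, vit-4 11.6 to 16.1%, vit-3 10.9 to 14.5% and vit-1 3.92 to 8.56% over the 27 libraries. These shares are uncertain within the YP170 groups. vit-1 and vit-2 resemble each other closely, as do vit-3, vit-4 and vit-5, and the authors kept only reads that align to 1 place, so reads from stretches shared by copies were not counted. vit-1 (K09F5.2), vit-2 (C42D8.2), vit-3 (F59D8.1), vit-4 (F59D8.2) and vit-5 (C04F6.1) lie on chromosome X, with vit-3 and vit-4 next to each other, and vit-6 (K07H8.6) and rme-2 (T11F8.3) lie on chromosome IV.

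**Figure D1:**
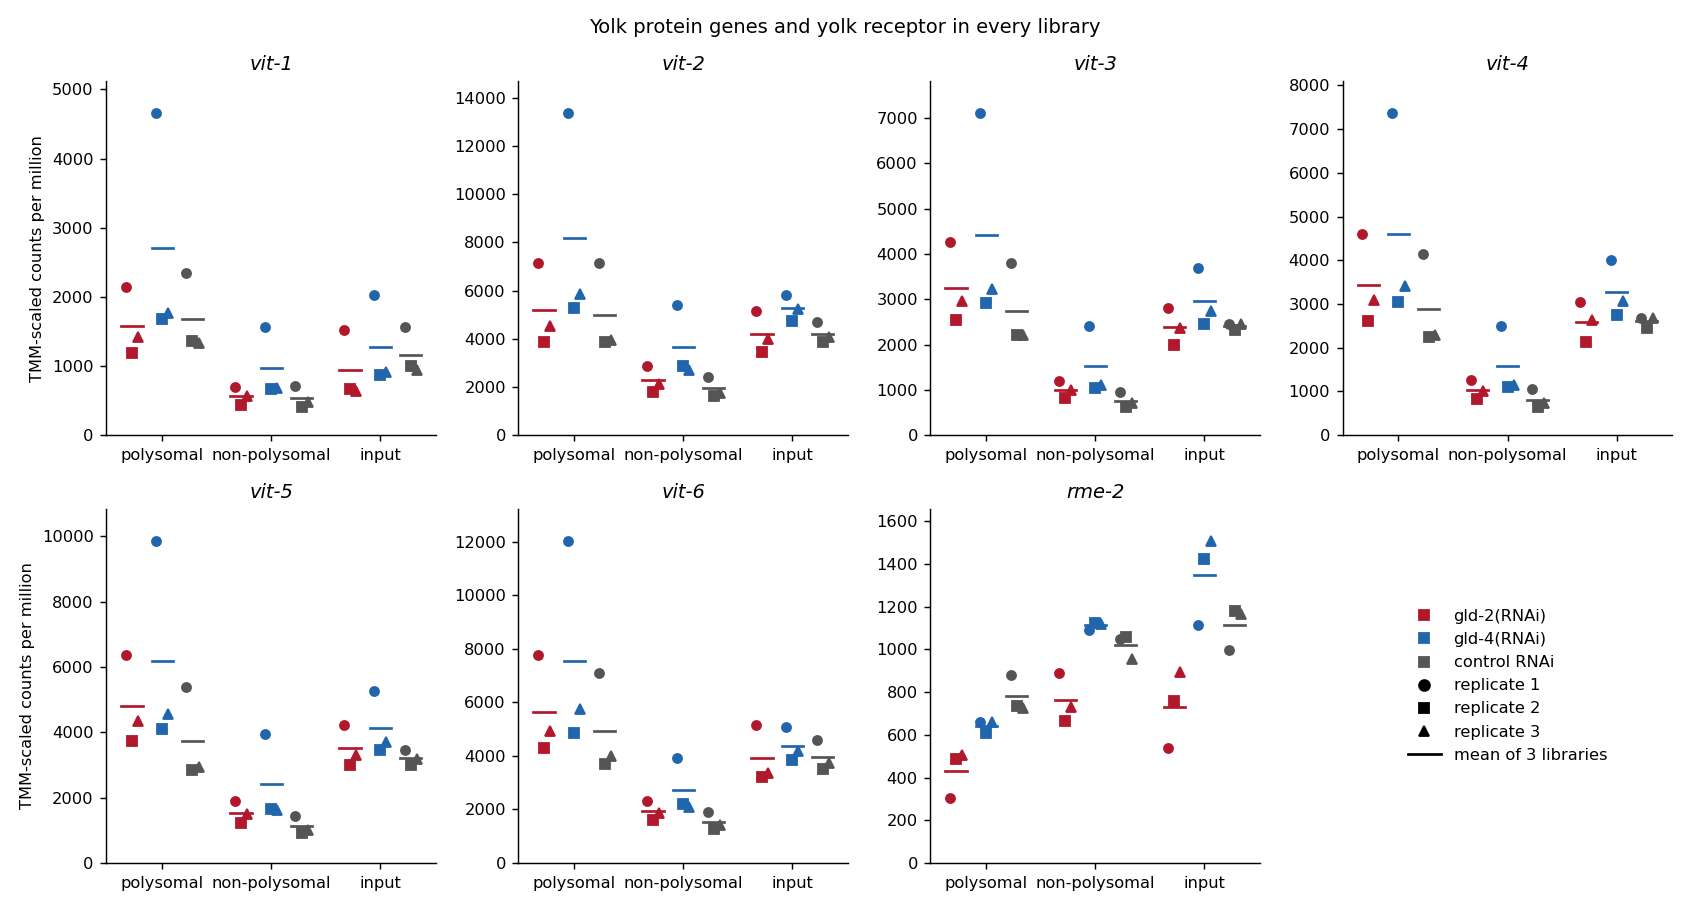
Level of each gene in each of the 27 libraries, in TMM-scaled CPM (vertical axes, linear, from 0), by fraction and RNAi condition; marker shape gives the replicate number and lines give the mean of 3 libraries. The circles of replicate 1 are the highest of their group in every vit panel, and in the rme-2 panel the 3 gld-2(RNAi) libraries lie below the 3 control RNAi libraries in each fraction.

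The yolk receptor mRNA was lower in gld-2(RNAi) than in control RNAi in each fraction, and the call passed the threshold in the polysomal fraction. In input, rme-2 stood at 536.5, 757.0 and 893.1 CPM in gld-2(RNAi), against 997.2, 1179 and 1167 CPM in control RNAi. The groups did not overlap, as was so for 32.1% of tested genes in this direction, and replicate 1 of gld-2(RNAi) was the lowest library. The log2 fold change was -0.56 ± 0.20 (SE), with an adjusted p of 0.0528 that narrowly missed the threshold, where 24.7% of tested genes passed as lower. With the replicate number as a block it was -0.59 (adjusted p = 0.00233, 32.2% of genes lower), with DESeq2 -0.54 (adjusted p = 0.0233), without the replicate 1 libraries -0.46 (adjusted p = 0.00798), and library size alone as scaling gave -0.75 (adjusted p = 0.0157). The call was also made without replicate 1 of gld-2(RNAi) (-0.40, adjusted p = 0.0479) and without its replicate 3 (-0.74, adjusted p = 0.0252).

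In the polysomal fraction, rme-2 fell to 305.7, 487.7 and 504.1 CPM in gld-2(RNAi), against 879.2, 736.3 and 724.3 CPM in control RNAi. Every gld-2(RNAi) library lay below every control library, as for 29.8% of tested genes, and replicate 1 held both the lowest and the highest value of the 6. The fitted log2 change was -0.83 ± 0.22 (adjusted p = 0.0289), a level 0.565 times that of control, where 21.3% of tested genes passed as lower. Leaving out 1 library moved the p across the threshold: the log2 fold change stayed between -0.95 and -0.62 in all 6 fits, passed without replicate 1 of gld-2(RNAi) (adjusted p = 0.00581), and had an adjusted p of 0.0543 without replicate 2 and 0.0526 without replicate 3 of gld-2(RNAi), and of 0.0642, 0.08385 and 0.0837 without control replicates 1, 2 and 3. The replicate block gave an adjusted p of 0.0171. Among tested genes rme-2 ranked 948 per length in the polysomal fraction of gld-2(RNAi), 627 in that of gld-4(RNAi) and 504 in that of control RNAi.

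In the non-polysomal fraction, rme-2 stood at 891.4, 666.1 and 729.2 CPM in gld-2(RNAi), against 1047, 1057 and 953.1 CPM in control RNAi. The groups again did not overlap (33.9% of tested genes in this direction), and here replicate 1 was the highest gld-2(RNAi) library. Fitted, the log2 change was -0.42 ± 0.15, with an adjusted p of 0.0516, where 30.2% of tested genes passed as lower. It was -0.43 with the block (adjusted p = 0.00935), -0.42 with DESeq2 (adjusted p = 0.00415) and -0.54 without the replicate 1 libraries (adjusted p = 1.91e-08); without replicate 1 of gld-2(RNAi) alone it was -0.53 (adjusted p = 0.013).

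Other oocyte mRNAs were lower in the same libraries, and most by more than rme-2. Of the 15 oocyte and eggshell markers, 11 fell and 1 rose in gld-2(RNAi) input, 12 fell in P and 13 fell and 1 rose in NP, where 24.7%, 21.3% and 30.2% of tested genes passed as lower. The list medians were -1.24, -1.80 and -1.18 against medians of 0.03, 0.02 and 0.04 over all tested genes. Among those that fell in input were cav-1, a caveolin (-2.73 ± 0.70, adjusted p = 0.0175), the eggshell chondroitin proteoglycans cpg-1 (-2.27 ± 0.215, adjusted p = 0.000537) and cpg-2 (-2.26 ± 0.19, adjusted p = 0.000366), and oma-2, a zinc finger protein of oocyte maturation (-1.98 ± 0.22, adjusted p = 0.000791). Summed, the oocyte markers stood at 2644 to 2968 CPM in gld-2(RNAi), against 8819 to 9824 CPM in control RNAi, in P, and at 4834 to 5987 CPM in gld-2(RNAi), against 13160 to 14230 CPM in control RNAi, in NP. Sperm markers moved the other way, with sums over the 16 listed genes of 788 to 1991 CPM in gld-2(RNAi) input, against 74.7 to 283.6 CPM in control input. The filter on low counts used all input libraries, so sperm genes could pass it through their gld-2(RNAi) level. A count of calls among them is therefore not given. The part of these cell type changes in the rme-2 values was not tested.

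The fitted log2 fold changes of the yolk protein mRNAs lay on both sides of 0 in gld-2(RNAi) input. There 0 of the 6 vit genes passed edgeR's test in either direction, where 21.4% of tested genes passed as higher and 24.7% as lower; 0 had an unadjusted p under 0.05, and 0 passed with DESeq2. Their log2 fold changes ranged from -0.25 to 0.18 (adjusted p = 0.368 to 0.896). vit-2 stood at 5149, 3455 and 4006 CPM in gld-2(RNAi) input, against 4693, 3851 and 4061 CPM in control input, and vit-6 at 5167, 3198 and 3376 CPM, against 4590, 3527 and 3747 CPM. For both genes, the 2 groups overlapped and the gld-2(RNAi) libraries spread more widely, from the highest to the lowest of the 6. The sign of vit-2, vit-3, vit-4 and vit-6 turned under scaling to library size alone (-0.14 to -0.16) and without the replicate 1 libraries (-0.04 to -0.10).

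vit-1 was the vit gene with the lowest fold change in gld-2(RNAi). It stood at 1515, 665.1 and 640.9 CPM in gld-2(RNAi) input, against 1558, 995.4 and 939.9 CPM in control input. Replicates 2 and 3 of gld-2(RNAi) were below all controls, whereas replicate 1 lay within their range. The fitted change was -0.25 ± 0.38 (adjusted p = 0.612). It passed as lower with the replicate block (-0.34 ± 0.13, adjusted p = 0.0471), without replicate 1 of gld-2(RNAi) (-0.80, adjusted p = 0.0371) and without all replicate 1 libraries (-0.52, adjusted p = 0.00178), where 32.2% and 35.8% of genes passed as lower with the block and without those libraries.

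In the gradient fractions the fitted values of the vit genes of gld-2(RNAi) lay near or above 0 against control. In P their log2 fold changes were -0.06 to 0.40 (adjusted p = 0.353 to 0.888), and 0 passed as higher, where 18.2% of tested genes did; in NP they were 0.09 to 0.46 (adjusted p = 0.166 to 0.783), with 0 higher where 27.6% of genes were. An unadjusted p under 0.05 was reached by 0 of the 6 in either fraction, and DESeq2 called 0. vit-1 in NP turned to -0.06 with library size alone, and vit-2 in P to -0.12. vit-5 had the highest value in both: in P it stood at 6351, 3738 and 4347 CPM in gld-2(RNAi), against 5374, 2859 and 2945 CPM in control RNAi, and in NP at 1902, 1229 and 1494 CPM in gld-2(RNAi), against 1449, 904.0 and 1003 CPM in control RNAi. Within each replicate number the gld-2(RNAi) library was the higher, but the groups overlapped, with replicate 1 high in both. With the block, vit-3, vit-4 and vit-5 passed as higher in P (0.28, 0.29 and 0.41, adjusted p = 0.0472, 0.0443 and 0.0147, 30.7% of genes higher). All but vit-1 passed in NP (0.23 to 0.47, adjusted p = 0.00329 to 0.0425, 35.9% of genes higher). Without NP control replicate 1, vit-3 (0.55, adjusted p = 0.0491) and vit-5 (0.65, adjusted p = 0.0486) were called higher. Without all replicate 1 libraries, vit-3 to vit-6 passed as higher in P (0.26 to 0.47, adjusted p = 0.00033 to 0.0259, 37% of genes higher), and all but vit-1 in NP (0.21 to 0.50, adjusted p = 1.86e-07 to 0.0348, 38.6% of genes higher).

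Under gld-4 knockdown the yolk protein mRNAs had positive log2 fold changes against control in all 3 fractions, with the largest values in NP. An exception under other settings was vit-1 in input, at -0.12 without the replicate 1 libraries and -0.37 without that of gld-4(RNAi) alone. It was also -0.0085 without control replicate 2 and -0.009 without control replicate 3. In NP, vit-5 stood at 3960, 1662 and 1630 CPM in gld-4(RNAi), against 1449, 904.0 and 1003 CPM in control RNAi. vit-2 stood at 5420, 2876 and 2712 CPM in gld-4(RNAi), against 2426, 1640 and 1757 CPM in control RNAi. vit-6 stood at 3916, 2200 and 2079 CPM in gld-4(RNAi), against 1911, 1251 and 1412 CPM in control RNAi. In each case the 3 gld-4(RNAi) libraries were above the 3 control libraries, and so they were for vit-3 and vit-4. This separation was seen in 23.3% of tested genes, and for vit-1 the groups overlapped. On the log2 scale the fold changes were 0.83 to 1.10 (SE 0.32 to 0.41, adjusted p = 0.0951 to 0.164), and 0 of 6 passed as higher in edgeR's test, where 9.68% of tested genes did. An unadjusted p under 0.05 was reached by 5 of the 6, and the share of all tested genes at that level was not counted.

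Other fits of these NP values passed the threshold. DESeq2 called all 6 vit genes higher (0.85 to 1.12, adjusted p = 0.0135 to 0.0399, 20.2% of genes higher), and so did the replicate block (0.77 to 0.99, adjusted p = 0.00153 to 0.00247, 22.5% of genes higher). Without the replicate 1 libraries all 6 passed as well, at 0.58 to 0.76 (21.4% of genes higher). Leaving out replicate 1 of gld-4(RNAi) NP alone gave log2 fold changes of 0.32 to 0.53 and no call. The summed intestine markers stood at 1023 to 2863 CPM in gld-4(RNAi) NP, against 781 to 1882 CPM in control NP, and 1 of the 10 tested rose; their part in the vit values was not tested.

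In P, the vit genes had log2 fold changes of 0.59 to 0.70 in gld-4(RNAi) (SE 0.42 to 0.47, adjusted p = 0.404 to 0.480). vit-2 stood at 13360, 5298 and 5863 CPM in gld-4(RNAi), against 7166, 3884 and 3957 CPM in control RNAi, and vit-6 at 12030, 4867 and 5750 CPM, against 7081, 3702 and 3979 CPM. Replicate 1 was the highest in both groups and the groups overlapped, while within each replicate number gld-4(RNAi) was above control. The summed intestine markers stood at 2062 to 5974 CPM in gld-4(RNAi) P, against 1948 to 5145 CPM in control P. None of the 6 vit genes passed as higher, where 1.12% of tested genes did, with 0 at an unadjusted p under 0.05 and 0 with DESeq2; the block called vit-4 (0.58, adjusted p = 0.0459) and vit-5 (0.64, adjusted p = 0.0385), against 9.71% of genes. All 6 passed without the replicate 1 libraries (0.32 to 0.53, adjusted p = 0.000111 to 0.00229, 24% of genes higher). In input the values were smaller, 0.13 to 0.37 (adjusted p = 0.133 to 0.838), with 0 higher where 7.08% of genes were, 1 gene at an unadjusted p under 0.05 and 1 with DESeq2 (11.2% of genes higher). There vit-2 stood at 5822, 4743 and 5221 CPM in gld-4(RNAi), against 4693, 3851 and 4061 CPM in control input, without overlap (18.7% of tested genes in this direction). The block called vit-2, vit-4 and vit-5 in input (0.34, 0.33 and 0.36, adjusted p = 0.0263, 0.038 and 0.0306, 23.8% of genes higher), and the fit without the replicate 1 libraries called vit-2 alone (0.33, adjusted p = 0.0121, 22.2% of genes higher).

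**Figure D2:**
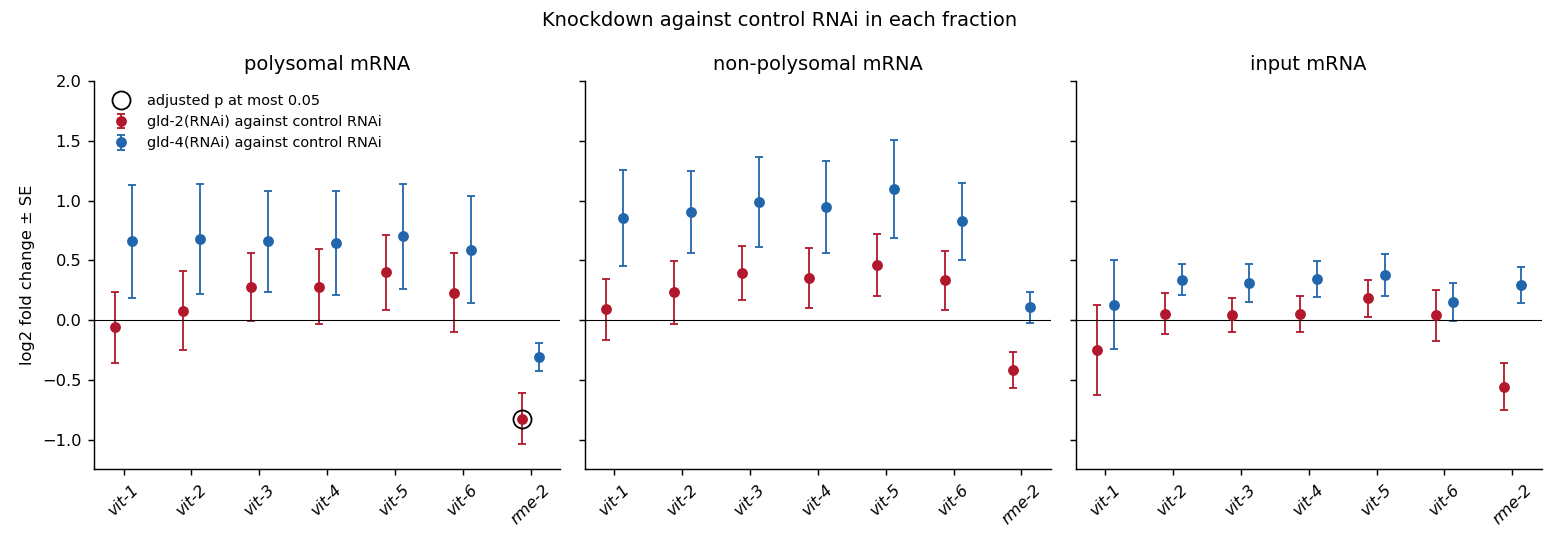
Fitted log2 fold change ± SE of each gene (vertical axis) in each knockdown, gld-2(RNAi) and gld-4(RNAi), against control RNAi, by fraction, from 3 libraries a group; rings mark an adjusted p of at most 0.05. The vit genes of gld-4(RNAi) lie between 0.83 and 1.10 in non-polysomal mRNA, and the only ring is that of rme-2 in polysomal mRNA of gld-2(RNAi), at -0.83.

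The receptor mRNA of gld-4(RNAi) animals had values above control in input and below control in P. In input rme-2 stood at 1115, 1424 and 1508 CPM in gld-4(RNAi), against 997.2, 1179 and 1167 CPM in control RNAi. Within each number gld-4(RNAi) was the higher, though its replicate 1 lay among the controls. The log2 fold change was 0.29 ± 0.15 (adjusted p = 0.222, 7.08% of genes higher); it passed with the block (0.28, adjusted p = 0.0404), without replicate 1 of gld-4(RNAi) (0.42, adjusted p = 0.0379) and without all replicate 1 libraries (0.32, adjusted p = 0.00805). In P the difference was in the other direction, with 659.5, 607.0 and 660.7 CPM in gld-4(RNAi), against 879.2, 736.3 and 724.3 CPM in control RNAi, and the groups did not overlap (15.3% of tested genes in this direction). The log2 fold change was -0.31 ± 0.12 (adjusted p = 0.1798, 2.68% of genes lower), and DESeq2 (-0.29, adjusted p = 0.0244) and the fit without replicate 1 libraries (-0.25, adjusted p = 0.0086) called it lower while the block did not (adjusted p = 0.0682).

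In NP rme-2 of gld-4(RNAi) lay close to control, at 1092, 1124 and 1120 CPM, against 1047, 1057 and 953.1 CPM in control RNAi. The groups did not overlap, as for 23.3% of tested genes, but the gap was small, with a log2 fold change of 0.11 ± 0.13 (adjusted p = 0.568) that turned to -0.023 with no filter on low counts. Of the oocyte markers, 4 of 15 rose and none fell in gld-4(RNAi) input (7.08% of tested genes higher). In gld-4(RNAi) P 0 of 15 passed in either direction, where only 1.12% of tested genes passed as higher and 2.68% as lower. Their sums in P were 10600 to 11760 CPM in gld-4(RNAi), against 8819 to 9824 CPM in control RNAi. The part of the oocyte marker levels in the rme-2 values was not tested.

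The knockdowns were also set against each other directly. In input rme-2 was lower after gld-2 than after gld-4 knockdown, at 536.5, 757.0 and 893.1 CPM in gld-2(RNAi), against 1115, 1424 and 1508 CPM in gld-4(RNAi), without overlap (29.9% of tested genes in this direction). This log2 difference was -0.89 ± 0.22 (adjusted p = 0.0166), where 25% of tested genes passed as lower; it was -0.84 (adjusted p = 0.0568) without replicate 2 and -0.79 (adjusted p = 0.0574) without replicate 3 of gld-4(RNAi). In NP it was -0.56 ± 0.16 (adjusted p = 0.0226, 26.6% of genes lower). That call was lost without replicate 2 or 3 of gld-2(RNAi) (-0.49 and -0.44, adjusted p = 0.0934 and 0.164) and without replicate 2 or 3 of gld-4(RNAi) (-0.48 each, adjusted p = 0.151 and 0.152). In P it was -0.51 ± 0.22 (adjusted p = 0.129, 17.7% of genes lower), and the block made the call (-0.54, adjusted p = 0.0459).

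The fitted values of the vit genes lay below 0 for gld-2(RNAi) against gld-4(RNAi) in all 3 fractions, and 0 of the 6 passed edgeR's test in any of them. Their log2 fold changes were -0.42 to -0.15 in input, -0.69 to -0.27 in P and -0.79 to -0.52 in NP (adjusted p = 0.113 to 0.628 over the 3 fractions). An unadjusted p under 0.05 was reached by 0 of the 6 in each fraction, and DESeq2 called 0. Replicate blocks called 4 of 6 lower in input (30.9% of genes), vit-1 and vit-2 in P (28% of genes) and all 6 in NP (30.7% of genes). Without the replicate 1 libraries the counts were 2 in input (36.0% of genes lower), 2 in P (40.5%) and 6 in NP (38.9%). In P, vit-3 to vit-6 turned to 0.09 to 0.16 without replicate 1 of gld-4(RNAi), and vit-1 in input turned to 0.06 without that of gld-4(RNAi) input.

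Relative to the other mRNAs of each fraction, log2 P over NP ratios were positive for the yolk protein genes and negative for rme-2. In gld-2(RNAi) the 6 vit genes were higher in P than in NP, by 2.42- to 3.51-fold (log2 1.27 to 1.81, adjusted p = 0.00166 to 0.0125). All 6 passed the threshold, as 25.9% of tested genes did, and all were at least 2-fold higher, as 12.5% were. vit-6 stood at 7756, 4302 and 4911 CPM in P, against 2329, 1587 and 1849 CPM in NP, and the P libraries lay above the NP libraries for every vit gene (26.6% of tested genes). vit-2 was no longer called without NP replicate 2 (1.15, adjusted p = 0.0554) or 3 (1.25, adjusted p = 0.0507). rme-2 was lower in P, at 305.7, 487.7 and 504.1 CPM, against 891.4, 666.1 and 729.2 CPM in NP. No library overlapped (37.9% of tested genes in this direction), and replicate 1 was lowest in P and highest in NP. The log2 ratio was -0.72 ± 0.23 (adjusted p = 0.0407, 29.9% of genes lower), with -0.85 to -0.51 over left-out libraries; the p rose to 0.0593 and 0.0531 without P replicates 2 and 3, and to 0.0907, 0.0691 and 0.0845 without NP replicates 1, 2 and 3. A filter at a mean of 10 counts gave an adjusted p of 0.0678 and no filter one of 0.0958.

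In gld-4(RNAi) the vit ratios were 2.35- to 3.06-fold (log2 1.23 to 1.62, adjusted p = 0.0325 to 0.0787), and vit-3, vit-4 and vit-6 passed, where 27.2% of tested genes passed as higher. vit-1, vit-2 and vit-5 missed the threshold at 0.0522, 0.0787 and 0.0625, with replicate 1 far above the other libraries in both fractions. The P libraries lay above the NP libraries for all vit genes but vit-2 (28.3% of tested genes). vit-2 stood at 13360, 5298 and 5863 CPM in P, against 5420, 2876 and 2712 CPM in NP, so that the highest NP library lay above the lowest P library. The block called all 6 (log2 1.204 to 1.64, adjusted p = 3.83e-05 to 5.21e-05, 41% of genes higher), as did the fit without the replicate 1 libraries (log2 1.04 to 1.56, 43.0% of genes higher). Of the fits without 1 library, those without P replicate 1 or 3 or NP replicate 2 or 3 called 0 of 6, and that without NP replicate 1 called 5. rme-2 was lower in P, at 659.5, 607.0 and 660.7 CPM, against 1092, 1124 and 1120 CPM in NP, with little spread in either fraction and no overlap (36.8% of tested genes in this direction). The log2 ratio was -0.69 ± 0.13 (adjusted p = 0.00584, 28.2% of genes lower), and the call was made in all 6 fits without 1 library.

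In control RNAi all 6 vit genes were higher in P than in NP by 2.74- to 3.83-fold (log2 1.45 to 1.94, adjusted p = 0.000932 to 0.00463). Of tested genes 33.6% passed as higher in P, and 18% were also at least 2-fold higher. vit-6 stood at 7081, 3702 and 3979 CPM in P, against 1911, 1251 and 1412 CPM in NP, and vit-2 at 7166, 3884 and 3957 CPM in P, against 2426, 1640 and 1757 CPM in NP. The P libraries lay above the NP libraries for every vit gene (32.2% of tested genes). The receptor again showed the reverse order, with rme-2 at 879.2, 736.3 and 724.3 CPM in control P, against 1047, 1057 and 953.1 CPM in control NP. These groups did not overlap (41.5% of tested genes in this direction), and the log2 ratio was -0.29 ± 0.11 (adjusted p = 0.0527, 35.9% of genes lower), which the block (-0.29, adjusted p = 0.00867), DESeq2 (-0.27, adjusted p = 0.0258), scaling to library size alone (-0.66, adjusted p = 0.000613) and the fit without control P replicate 1 (-0.35, adjusted p = 0.0356) called lower.

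These ratios are relative to the other mRNAs of each fraction. Between P and NP, library size alone as scaling placed the median of all tested genes at -0.40 in gld-2(RNAi), -0.17 in gld-4(RNAi) and -0.31 in control RNAi, and TMM placed it at -0.03, 0.12 and 0.05. The vit genes kept positive and rme-2 kept negative log2 ratios under each scaling run. None of these scalings used the spike-in, so the share of each mRNA that lay in P was not measured.

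Taking P over NP within each replicate number shows where the conditions part. For rme-2 the log2 ratios of levels were -1.54, -0.45 and -0.53 in gld-2(RNAi), -0.73, -0.89 and -0.76 in gld-4(RNAi) and -0.25, -0.52 and -0.40 in control RNAi. All 3 gld-4(RNAi) values lay below all 3 control values, whereas in gld-2(RNAi) replicate 2 lay within the control range, replicate 3 just below it and replicate 1 far below it. For the vit genes the ratios were 0.88 to 1.86 over both knockdowns and 1.17 to 1.99 in control RNAi. The vit-5 ratios were 1.74, 1.60 and 1.54 in gld-2(RNAi), 1.32, 1.30 and 1.48 in gld-4(RNAi) and 1.89, 1.66 and 1.55 in control RNAi.

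**Figure D3:**
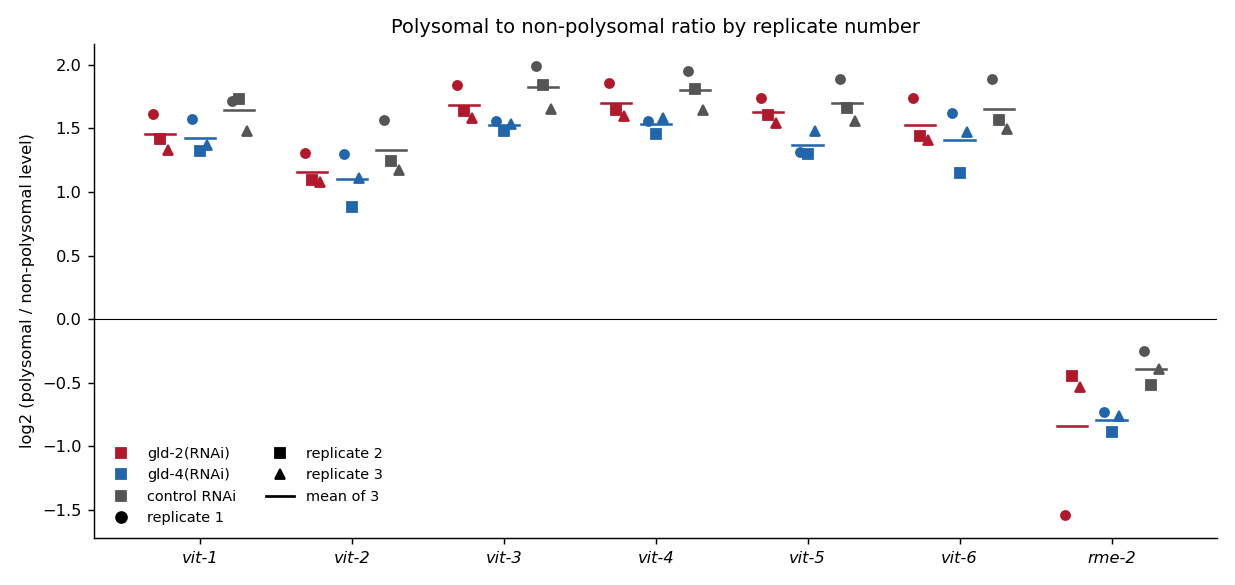
Log2 ratio of the polysomal to the non-polysomal level (vertical axis) of each gene in each replicate number, by RNAi condition, with lines at the mean of 3. All vit points lie above 0, between 0.88 and 1.99, and all rme-2 points below 0, with gld-2(RNAi) replicate 1 at -1.54.

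The change of the P/NP ratio was tested as an interaction over 12 libraries, without pairing P and NP by replicate number, and no member passed. For the vit genes the differences of log2 ratios from control were -0.22 to -0.13 in gld-2(RNAi) (adjusted p = 0.813 to 0.893) and -0.41 to -0.21 in gld-4(RNAi) (adjusted p = 0.9952 to 0.9999), where 3.64% and 0.0270% of tested genes passed as lower. For rme-2 the difference was -0.47 ± 0.26 in gld-2(RNAi) (adjusted p = 0.337), beside a median of -0.14 over all tested genes, and it was 0.03 without the replicate 1 libraries. In gld-4(RNAi) it was -0.41 ± 0.15 (adjusted p = 0.29), with -0.44 and an adjusted p of 0.0163 in DESeq2 and -0.36 with an adjusted p of 0.0357 without the replicate 1 libraries. Of the 7 members, 0 had an unadjusted p under 0.05 in gld-2(RNAi) and rme-2 alone had one in gld-4(RNAi). Between the knockdowns the rme-2 difference was -0.01 ± 0.27 (adjusted p = 0.993), and 0.39 (adjusted p = 0.0076) without the replicate 1 libraries. A fit that paired P and NP by replicate number gave smaller p for the vit genes. In gld-2(RNAi) against control it gave -0.23 to -0.12 (edgeR adjusted p = 0.161 to 0.461). In gld-4(RNAi) against control it gave -0.35 to -0.23 (edgeR adjusted p = 0.178 to 0.354).

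The ratio of summed vit counts to rme-2 counts within a library needs no scaling between libraries. In P it was 105.5, 37.4 and 42.2 in gld-2(RNAi), 82.5, 36.1 and 37.2 in gld-4(RNAi) and 34.0, 22.1 and 23.1 in control RNAi. Both knockdowns lay above control without overlap. The log2 ratios were 5.78 ± 0.82 in gld-2(RNAi), 5.59 ± 0.68 in gld-4(RNAi) and 4.69 ± 0.34 in control RNAi (SD, n = 3), with differences of 1.09 and 0.89. In NP the ratio was 11.53, 10.09 and 11.05 in gld-2(RNAi), 18.1, 8.51 and 8.36 in gld-4(RNAi) and 8.14, 5.18 and 6.38 in control RNAi, again without overlap and with log2 differences of 0.75 for each knockdown. For each of these 4 differences the exact two-sided permutation test gave p = 0.1, which is the smallest that 3 against 3 libraries allow.

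In input the summed ratio was 40.8, 19.1 and 18.3 in gld-2(RNAi), 23.2, 12.7 and 13.1 in gld-4(RNAi) and 19.5, 13.7 and 14.6 in control RNAi. The groups overlapped in both comparisons. The log2 differences were 0.62 in gld-2(RNAi) (exact permutation p = 0.3), or 0.25 without its replicate 1, and -0.00210 in gld-4(RNAi) (exact permutation p = 1.0). Adjusted over the 6 ratio tests, the 4 smallest p were 0.15. The P and NP differences in gld-4(RNAi) came with log2 fold changes of 0.59 to 1.10 for the vit genes and of -0.31 and 0.11 for rme-2. In gld-2(RNAi) they came with -0.06 to 0.46 for the vit genes and -0.83 and -0.42 for rme-2. Without replicate 1 of gld-2(RNAi) P and of gld-4(RNAi) P the differences in P were 0.62 and 0.50, and without replicate 1 of gld-4(RNAi) NP that in NP was 0.39.

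**Figure D4:**
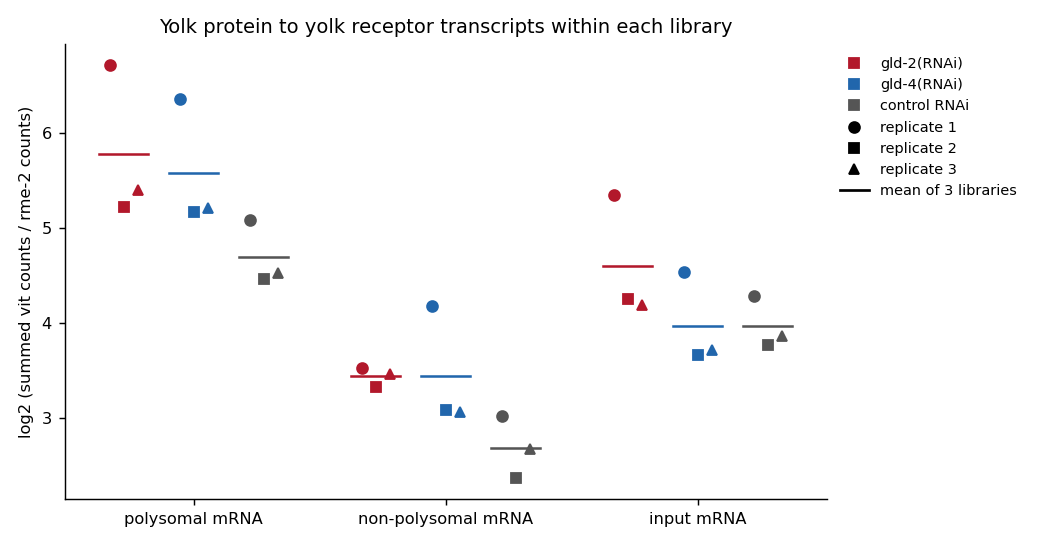
Log2 ratio of summed vit counts to rme-2 counts (vertical axis) in each of the 27 libraries, by fraction and RNAi condition, with lines at the mean of 3. In polysomal and non-polysomal mRNA all points of both knockdowns lie above those of control RNAi, and in input the groups overlap.

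Genes that act with the yolk system were taken as lists. Of 14 regulators of vit transcription, 6 were tested, and in gld-2(RNAi) input 4 fell and 0 rose (list median -0.64), where 24.7% of tested genes passed as lower. These were skn-1, a transcription factor of the Nrf family (-1.21 ± 0.11, adjusted p = 0.000506), daf-16, the FOXO factor known to lower vit expression (-0.76 ± 0.16, adjusted p = 0.00746), rict-1, a subunit of TOR complex 2 (-0.66 ± 0.11, adjusted p = 0.0031) and mpk-1, the ERK-type MAP kinase (-0.61 ± 0.14, adjusted p = 0.00989). skn-1, rict-1 and mpk-1 also act in the germ line or early embryo, and whole-worm RNA does not show in which tissue they fell. In gld-4(RNAi) input, rict-1 rose (0.41 ± 0.10, adjusted p = 0.0395), where 7.08% of tested genes passed as higher, and no other regulator passed.

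Of 16 genes of endocytosis and yolk uptake, all tested, 4 rose and 4 fell in gld-2(RNAi) input (list median 0.03), where 21.4% of tested genes passed as higher and 24.7% as lower. Those that rose included rab-11.1, a small GTPase of recycling endosomes (0.90 ± 0.15, adjusted p = 0.00328), and the AP2 clathrin adaptor subunits apa-2 (0.87 ± 0.19, adjusted p = 0.00882) and dpy-23 (0.85 ± 0.15, adjusted p = 0.00445), while cav-1, which is also on the oocyte list, fell. In gld-4(RNAi) input 0 passed in either direction, and in gld-4(RNAi) NP, where 9.68% of tested genes passed as higher, 4 rose: dyn-1, a dynamin (0.52 ± 0.11, adjusted p = 0.0192), chc-1, the clathrin heavy chain (0.50 ± 0.13, adjusted p = 0.0309), and the small GTPases rab-5 (0.49 ± 0.07, adjusted p = 0.00771) and rab-35 (0.38 ± 0.08, adjusted p = 0.0166).

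Of 14 genes that supply lipid for yolk, 13 were tested. In gld-2(RNAi) input 3 rose and 1 fell, beside 21.4% and 24.7% of tested genes, with fat-5, a palmitoyl-CoA desaturase, at 1.72 ± 0.28 (adjusted p = 0.00318) and mdt-15, a Mediator subunit that controls lipid genes, at -0.73 ± 0.13 (adjusted p = 0.00413). fat-5 was also called higher in gld-4(RNAi), at 1.68 ± 0.19 in P (adjusted p = 0.0334) and 1.89 ± 0.23 in NP (adjusted p = 0.00499). In gld-4(RNAi) NP, the fraction with the largest vit values, 4 of the 13 rose and none fell, where 9.68% of tested genes passed as higher. Besides fat-5 these were dsc-4, a subunit of the transfer protein that loads lipid onto vitellogenins (1.04 ± 0.27, adjusted p = 0.0344), sbp-1, the SREBP homologue (0.62 ± 0.13, adjusted p = 0.0161), and pod-2, acetyl-CoA carboxylase (0.49 ± 0.07, adjusted p = 0.00771). There 3 of 8 lysosomal and yolk proteases rose too: cpz-1 (0.62 ± 0.11, adjusted p = 0.0111), cpr-6 (0.61 ± 0.07, adjusted p = 0.00463) and asp-4 (0.60 ± 0.08, adjusted p = 0.00519). Of these, cpr-6 is also on the intestine list.

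The P over NP ratio of the yolk genes can be set beside that of their tissues. In control RNAi 7 of 10 tested intestine markers were higher in P and 0 lower (list median 1.29, all tested genes 0.05), where 33.6% of tested genes passed as higher and 35.9% as lower, with act-5, the actin of intestinal microvilli, at 2.55 ± 0.31 (adjusted p = 0.000489) and ges-1, a gut esterase, at 2.33 ± 0.39 (adjusted p = 0.00184). The median of the vit genes was 1.80. Of 8 body wall muscle markers 7 were higher in P (list median 1.57). Of 15 oocyte markers 11 were lower in P and 3 higher (list median -0.49), and spn-4, an RNA-binding protein of the embryo, was at -1.45 ± 0.12 (adjusted p = 0.000103). The rme-2 value of -0.29 lay on the side of most oocyte markers. Of the 16 endocytosis genes, 10 were higher in P in gld-2(RNAi) (25.9% of tested genes), 8 in gld-4(RNAi) (27.2%) and 14 in control RNAi (33.6%), where lrp-1, a megalin homologue, led (2.38 ± 0.38, adjusted p = 0.00147).

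Across the 27 libraries the 6 vit genes varied together, with Pearson correlations of log2 CPM of 0.896 to 0.999 over their 15 pairs. rme-2 correlated with them at -0.380 to -0.243. These values are descriptions over libraries that share replicate numbers, fractions and conditions. The genes most like rme-2 over the 27 libraries were egg-3, a protein of the egg-to-embryo transition that is also on the oocyte list (r = 0.965), gln-5, a glutamine synthetase (0.960), cee-1 (0.959), ptr-2, a patched-related protein (0.958), and F56C11.5 (0.953). Those most like vit-2 were clec-50, a C-type lectin (0.941), F13D12.6 (0.941), Y69H2.3 (0.941), M28.10 (0.940) and F28B4.3 (0.936).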

How the data were processed

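The authors trimmed adapters, aligned reads of poly(A)-enriched libraries to the WS220 genome with TopHat2, keeping unique alignments, and counted them per gene with featureCounts (Subread 1.4.0, per the submitters' notes); whether strand was kept is stated differently in different places. The deposited table holds raw counts. The authors' comparison tables hold fold changes and p-values; the tables served for gene names only, and their 72 columns of sample values were left aside. The count table has 0 features named for the FFluc spike-in, so P and NP were scaled by TMM, relative to other mRNAs.

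Members and lists were chosen with earlier results of these data known. Genes with a mean of at least 100 TMM-scaled counts over the 9 input libraries (7418) were tested with edgeR 4.0.16 (robust quasi-likelihood, R 4.3.3), on the 6 libraries of a comparison or 12 of a P/NP interaction, in 15 comparisons. Fold changes use scaling within the comparison, so they differ slightly from ratios of the printed CPM. Calls need an adjusted p of at most 0.05, and 2-fold where stated. Counts at an unadjusted p under 0.05 are given without the share of all tested genes. So is the DESeq2 count of vit genes for P over NP in gld-4(RNAi). Ratios of summed vit to rme-2 counts were compared by an exact two-sided permutation test. Exon lengths come from a later annotation (WBcel235) than the counts, so no positions are given.

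Named are the 7 members, up to 4 passing list genes with the largest change, the 5 genes most correlated with rme-2 or vit-2, and the RNAi targets. Deviations of same-numbered libraries from their group means correlated at 0.497 to 0.905, all above 0.1 (different numbers -0.884 to 0.870). The label numbers were therefore taken to pair libraries. Libraries numbered 2 also correlated with those numbered 3. For P over NP in gld-4(RNAi) this was at 0.870 and 0.833, beside 0.800 for 2 with 2 and 0.852 for 3 with 3. The correlations set replicate 1 apart and cannot decide the pairing of 2 and 3. No replicate pair agreed within counting noise (chi-square per degree of freedom 9.70 to 214.7). Alternatives were the replicate block, DESeq2 1.42.0, other scalings and filters, copies summed, single vit genes in the ratio, leaving out each library and, chosen after seeing the data, TMM from all features and leaving out all replicate 1 libraries. In simulated data with 200 changed genes of 7418, gld-2(RNAi) input against control recovered 169 with 8 false calls. The gld-2(RNAi) P/NP interaction recovered 150 with 4 false calls. Recovery at the fold changes of the 7 members was not tested.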

Additional observations from a re-analysis of the deposited data

Results flagged for a closer look

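The level of rme-2 differed between the knockdowns by a direct test in input and in NP. Each test used 6 libraries, 3 per knockdown, and no control library. In input the log2 difference of gld-2(RNAi) from gld-4(RNAi) was -0.89 ± 0.22 (edgeR adjusted p = 0.0166), with 3 of 3 replicate numbers lower in gld-2(RNAi). In NP it was -0.56 ± 0.16 (edgeR adjusted p = 0.0226), again with 3 of 3 numbers lower. Oocyte markers summed to 4260 to 6760 CPM in gld-2(RNAi) and 18930 to 27010 CPM in gld-4(RNAi) in input; their part in the difference was not tested. Of the 6 fits without 1 library, 2 lost the input call (adjusted p = 0.0568 and 0.0574 without replicates 2 and 3 of gld-4(RNAi)). The NP call was lost in 4 of 6, without replicates 2 and 3 of gld-2(RNAi) (adjusted p = 0.0934 and 0.164) and of gld-4(RNAi) (adjusted p = 0.151 and 0.152).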

How the results depend on the processing

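Of 2085 values recomputed under alternatives, 1815 were counted as unchanged. Tested values in this set kept their direction and side of the threshold. Counts of called vit genes in it stayed at 0 or close to the main count, and ratios without a p kept their sign. Of the rest, 119 newly passed, 35 no longer passed, 85 changed sign and 31 counts of called vit genes moved further. Scaling without the 7 members changed none of its 135 values. The causes of the changes were not tested. The replicate block brought rme-2 past the threshold in gld-2(RNAi) input (-0.59), gld-4(RNAi) input (0.28), gld-2(RNAi) NP (-0.43), gld-2(RNAi) over gld-4(RNAi) P (-0.54) and control P over NP (-0.29). It called vit genes where the unblocked test called 0: 1 lower in gld-2(RNAi) input, 3 higher in gld-4(RNAi) input, 5 in gld-2(RNAi) NP, 6 in gld-4(RNAi) NP, 3 in gld-2(RNAi) P and 2 in gld-4(RNAi) P, 4, 6 and 2 lower for gld-2(RNAi) over gld-4(RNAi) in input, NP and P, and 6 against 3 for P over NP in gld-4(RNAi); paired p for the ratios cannot go below 0.25. DESeq2 called rme-2 in gld-2(RNAi) input (-0.54) and NP (-0.42), gld-4(RNAi) P (-0.29), control P over NP (-0.27) and the gld-4(RNAi) P/NP interaction (-0.44), gave 0.015 for the interaction between knockdowns, and called 1 vit gene in gld-4(RNAi) input, 6 in its NP and 6 in its P over NP. In gld-2(RNAi) input, vit-2, vit-3, vit-4 and vit-6 were -0.14, -0.15, -0.14 and -0.16 by library size alone (vit-5 -0.012), -0.10, -0.10, -0.10 and -0.12 with a mean of at least 10, -0.11, -0.12, -0.11 and -0.14 with no filter or TMM from all features, and -0.037, -0.076, -0.063 and -0.10 without all replicate 1 libraries. These 2 alternatives, TMM from all features and the set without replicate 1, were chosen after seeing the data. With library size alone the values were -0.75 for rme-2 in gld-2(RNAi) input, -0.065 for vit-1 and -0.58 for rme-2 in NP, -0.12 for vit-2 in P, -0.66 for rme-2 in control P over NP, and -0.063 and -0.039 for vit-1 and vit-2 in the interaction between knockdowns. A mean of at least 10 gave -0.11 for vit-1 and -0.62 for rme-2 in gld-2(RNAi) NP, -0.0015 for rme-2 in gld-4(RNAi) NP, -0.044 for vit-2 in gld-2(RNAi) P, -0.69 and -0.40 for rme-2 in P over NP of gld-2(RNAi) and control RNAi, 0.017, 0.058, 0.072 and 0.029 for vit-3 to vit-6 in the gld-2(RNAi) interaction, and 0.087 for rme-2 between knockdowns. No filter gave -0.70 for rme-2 in gld-2(RNAi) input; no filter and TMM from all features gave -0.14 for vit-1 and -0.65 for rme-2 in NP, -0.023 for rme-2 in gld-4(RNAi) NP, -0.044 for vit-2 in P, -0.62 for rme-2 in gld-2(RNAi) P over NP and 0.039 between knockdowns, and the TMM set -0.41 in control P over NP. Summed copies gave -0.0074 for vit-2 in input and 0.045 for vit-1 in P of gld-2(RNAi), and 1 call in gld-4(RNAi) P over NP; vit-2 alone gave 0.057 for the gld-4(RNAi) input ratio. Without all replicate 1 libraries, rme-2 was -0.46, 0.32, -0.54, -0.25, -0.33 and -0.37 in gld-2(RNAi) input, gld-4(RNAi) input, gld-2(RNAi) NP, gld-4(RNAi) P, gld-2(RNAi) over gld-4(RNAi) P and control P over NP, and 0.028, -0.36 and 0.39 in the interactions of gld-2(RNAi), gld-4(RNAi) and between them. vit-5 was 0.025 in the first and vit-1 -0.12 in gld-4(RNAi) input; vit calls were 1 and 1 in input, 5 and 6 in NP, 4 and 6 in P with gld-2(RNAi) before gld-4(RNAi), 2, 6 and 2 between them, and 6 in gld-4(RNAi) P over NP. Over fits without 1 library, gld-2(RNAi) input ranged from -0.80 to 0.0066 for vit-1, -0.14 to 0.16 for vit-2, -0.10 to 0.14 for vit-3, -0.10 to 0.16 for vit-4, -0.23 to 0.15 for vit-6 and -0.74 to -0.40 for rme-2, with 0 to 1 vit genes lower. In gld-4(RNAi) input vit-1 ranged from -0.37 to 0.38 and rme-2 from 0.18 to 0.42, in gld-2(RNAi) NP vit-1 from -0.10 to 0.32 and rme-2 from -0.53 to -0.34 (0 to 2 vit calls), and in gld-2(RNAi) P vit-1 from -0.32 to 0.21, vit-2 from -0.21 to 0.38, vit-6 from -0.051 to 0.54 and rme-2 from -0.95 to -0.62. Between knockdowns the ranges were -0.96 to 0.063 for vit-1 and -1.06 to -0.71 for rme-2 in input, -0.66 to -0.44 for rme-2 in NP, and -0.58 to 0.092, -0.59 to 0.098, -0.51 to 0.16 and -0.61 to 0.10 for vit-3 to vit-6 in P. For P over NP rme-2 ranged from -0.85 to -0.51 in gld-2(RNAi) and -0.36 to -0.25 in control RNAi, and 0 to 5 vit genes were called in gld-4(RNAi). The interaction between knockdowns ranged from -0.080 to 0.14, -0.044 to 0.20 and -0.017 to 0.26 for vit-1, vit-2 and vit-6 and -0.19 to 0.32 for rme-2, and the gld-4(RNAi) input ratio from -0.28 to 0.15.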
